A study of Homo sapiens with 12 samples.

Results

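The comparison is between dormant cells of the lung cancer line HCC4006 and dormant cells of the lines PC9 and HCC827. It uses 6 of the 12 libraries of the study: 2 of dormant HCC4006, 2 of dormant PC9 and 2 of dormant HCC827. All 3 are established human lung cancer lines that carry a mutant EGFR gene. Every dormant group received 100 nM osimertinib, an inhibitor of EGFR, together with 30 nM trametinib, which blocks the kinase MEK further down the pathway, over 2 weeks. The other 6 libraries, 2 per line, come from cells given the solvent DMSO for 24 hours, and they show whether a difference between the lines was already there without the drugs. Dormant cells grew in larger dishes than DMSO cells, and each group had duplicate plates. No label tells whether these were separate cultures, so p-values measure the spread between these libraries, which may be technical. Each group is a single cell line, so a difference between lines holds for these lines and their state of culture.

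RNA was measured by sequencing stranded mRNA libraries, and all levels are FPKM, sequenced fragments divided by the length of the gene and the size of the library, as deposited. Differences are on the scale of log2(FPKM + 1), HCC4006 minus the mean of PC9 and HCC827, with their SE. Adding 1 makes the difference of a gene with low FPKM smaller than its true ratio. A gene was called when limma gave a Benjamini-Hochberg adjusted p under 0.05 over the 14699 genes tested and both dormant HCC4006 libraries lay on the same side of all 4 other dormant libraries. A called gene is thus free of overlap by the rule itself, and statements below that its libraries lie apart only restate the rule. No counts were analysed, so the sequencing depth is unknown.

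Cells that survive a block of EGFR and MEK without growing are called dormant or drug tolerant. The state is known for low proliferation, for a shift between epithelial and mesenchymal features, and for changed contact with the extracellular matrix, the mesh of collagens and glycoproteins that cells secrete and bind. YAP, which the title of the study names, is a coactivator that works with the DNA-binding TEAD factors. The Hippo kinases hold it back, a stiff matrix releases it, and its targets include the secreted factors CTGF and CYR61.

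The second dormant HCC4006 library stood apart from all others. It listed the glycolytic gene GAPDH at 6.72 FPKM, against 3755 to 19645 FPKM in the other 11. The share of mitochondrial tRNA in its FPKM was 20%, against 0.513% to 2.66% elsewhere. Genes listed at 0 numbered 1948 of those tested, against 368 to 802. Across genes, its log2 values correlated with its replicate at r = 0.654, while the other 5 pairs of replicates lay between 0.909 and 0.991. Among genes called higher, 82.4% had the larger value in this library, against 41.2% of all tested genes and 9.2% of genes called lower. The longest transcript of the genes called higher had a median of 4013 nt, against 2989 nt for all tested genes and 1663 nt for the genes called lower. The part of RNA quality or depth in the calls was not tested. Levels below are therefore given in each of the 2 libraries.

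Epithelial markers were present in dormant HCC4006, at a lower sum than in the other dormant lines. The 21 epithelial identity genes in the table summed to 1472 and 735.7 FPKM in dormant HCC4006, against 1654 to 5753 FPKM in the other dormant libraries. EPCAM, an epithelial surface protein, stood at 209 and 429 FPKM in dormant HCC4006, against 119.9 to 153 FPKM in the other dormant libraries. Of 10 immune markers, 7 and 9 were listed at 0 in dormant HCC4006, and their sum was 21 and 0.14 FPKM, against 8.52 to 14.8 FPKM in the other dormant libraries. Endothelial markers summed to 0.245 and 3.05 FPKM in dormant HCC4006, against 0.105 to 0.24 FPKM. The 8 fibroblast markers summed to 381.6 and 265.3 FPKM in dormant HCC4006, against 1.08 to 3.885 FPKM in the other dormant libraries. All 3 that were tested were called higher, but 2 of the 3 passed the filter described below through HCC4006. COL1A2 made up most of the sum, and the 7 other markers summed to 13.9 and 15.7 FPKM in dormant HCC4006, against 0.92 to 3.88 FPKM. Not all members were higher: COL3A1 and DCN were listed at 0 in both dormant HCC4006 libraries. LUM stood at 0.495 and 0 FPKM, against 0.82 and 0.66 FPKM in dormant HCC827. In DMSO HCC4006 the 8 summed to 3.025 and 3.335 FPKM.

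Dormant HCC4006 differed from both other dormant lines in many genes, more of them higher than lower. Of 14699 genes tested, 3245 were called higher (22.1%) and 704 lower (4.79%). The median difference over all tested genes was 0.27. That split depends on the scaling: with median of ratios scaling, 1634 genes were higher and 1537 lower with a median of -0.11, and with quantile normalization 1608 were higher and 1326 lower. When HCC4006 had to differ from PC9 and from HCC827 each by its own test, 1268 genes were higher and 170 lower. Leaving out this second library of dormant HCC4006, called the poor library below, gave 3146 higher and 472 lower genes, of which 2040 and 375 were also called with it. In a fit of the 6 dormant libraries as 2 against 4, which counts the distance between PC9 and HCC827 as error, 213 genes were higher and 13 lower. In bulk RNA, fewer cells of a type and less RNA per cell cannot be told apart. The members of each gene list below are read against the 22.1% and 4.79%. List counts from another fit have another background, namely the counts over all 14699 tested genes that are given above for that fit. A gene entered the test when it reached 1 FPKM in 2 or more of the 12 libraries. For 1563 of the tested genes fewer than 2 libraries of PC9 and HCC827 reached that level, so they passed through HCC4006, and 725 of them were called higher. Shares over the tested members of lists with such genes are in part set by this filter.

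**Figure D1:**
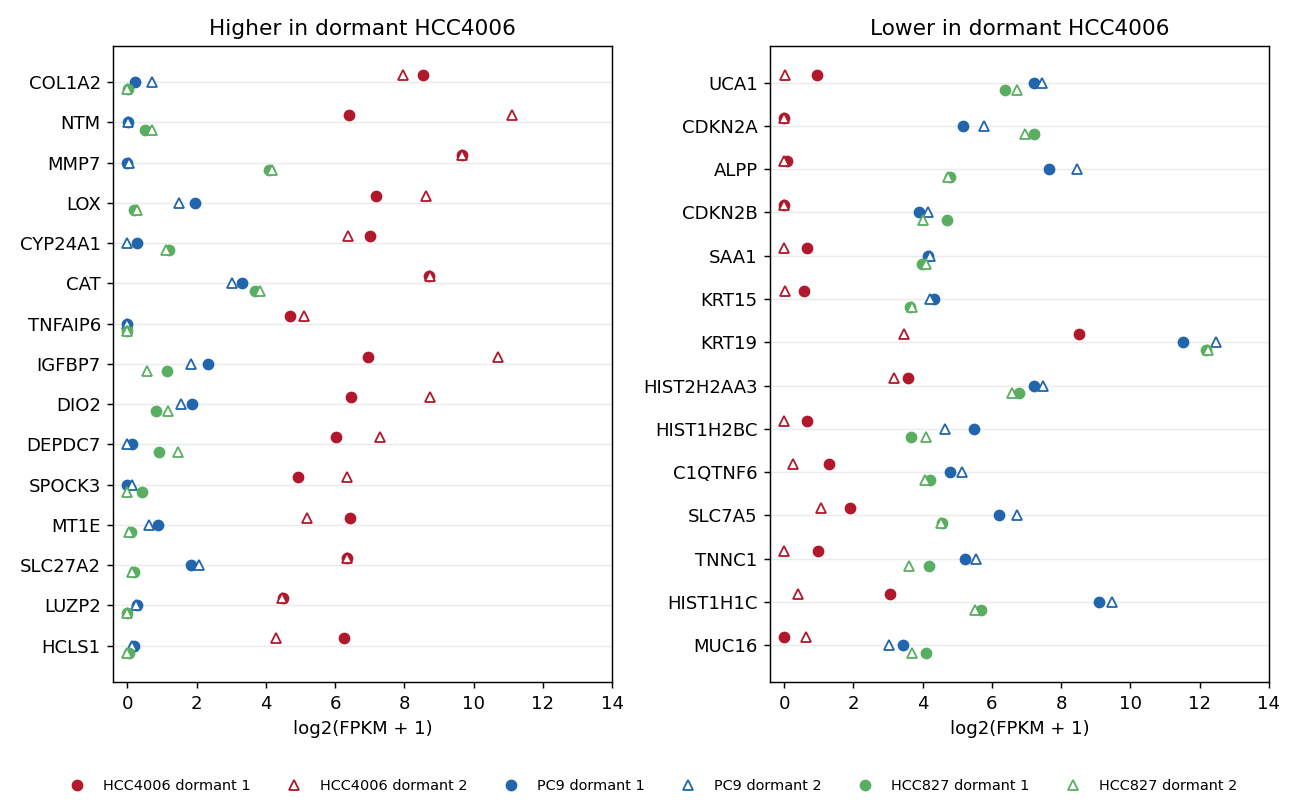
FPKM of the 15 genes with the widest gap above and 14 of the 15 with the widest gap below the other dormant lines, as log2(FPKM + 1) on the horizontal axis, a point per dormant library. In every row both HCC4006 points lie apart from the 4 points of PC9 and HCC827, but for NTM, IGFBP7 and KRT19 the 2 HCC4006 libraries themselves lie far from each other.

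The widest gap of any gene was that of COL1A2, a chain of type I collagen, the main fibrous collagen of connective tissue. It stood at 368 and 249.6 FPKM in dormant HCC4006, at 0.16 and 0.655 FPKM in dormant PC9 and at 0.02 and 0.005 FPKM in dormant HCC827. Both HCC4006 libraries lay far above all others and close to each other. The difference was 8.0 ± 0.31 (adjusted p = 2.8e-06, limma). In DMSO cells COL1A2 was near the floor in all lines, at 0.77 and 1.04 FPKM in HCC4006, against 0.025 to 0.36 FPKM in PC9 and HCC827. The partner chain COL1A1, which forms type I collagen with it, stood at only 7.45 and 12.2 FPKM in dormant HCC4006, against 0.18 to 2.83 FPKM in the other dormant libraries, with a difference of 2.16 ± 0.31 (adjusted p = 0.00146, limma).

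Of 16 tested collagen genes, 7 were called higher in dormant HCC4006 and 0 lower, with a median difference of 1.29. Of the 16, 4 passed the filter through HCC4006, 2 of them called. The chains of basement membranes were prominent among the 7. COL4A1 stood at 219 and 109 FPKM in dormant HCC4006, against 0.1 and 0.15 FPKM in dormant PC9 and 13 and 11.9 FPKM in dormant HCC827. It was also high in DMSO HCC4006, at 36 and 33.5 FPKM, against 0.18 to 0.355 FPKM in the other DMSO libraries. COL4A3 and COL4A4, the neighbouring chains of specialised basement membranes, were instead low in DMSO HCC4006, at 0.655 and 0.41 FPKM and 0.33 and 0.425 FPKM. In dormant HCC4006 they reached 16.8 and 13.4 FPKM and 20.5 and 199 FPKM, against 0.46 to 1.47 FPKM and 0.275 to 0.85 FPKM in the other dormant libraries. COL5A1, a fibrillar collagen that sets fibril width, stood at 23.6 and 26.1 FPKM in dormant HCC4006, against 0.835 to 1.38 FPKM. The type IV chain COL4A2, at 87.5 and 9.99 FPKM in dormant HCC4006, against 0.04 to 37.8 FPKM, was not called because its libraries overlapped those of dormant HCC827.

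**Figure D2:**
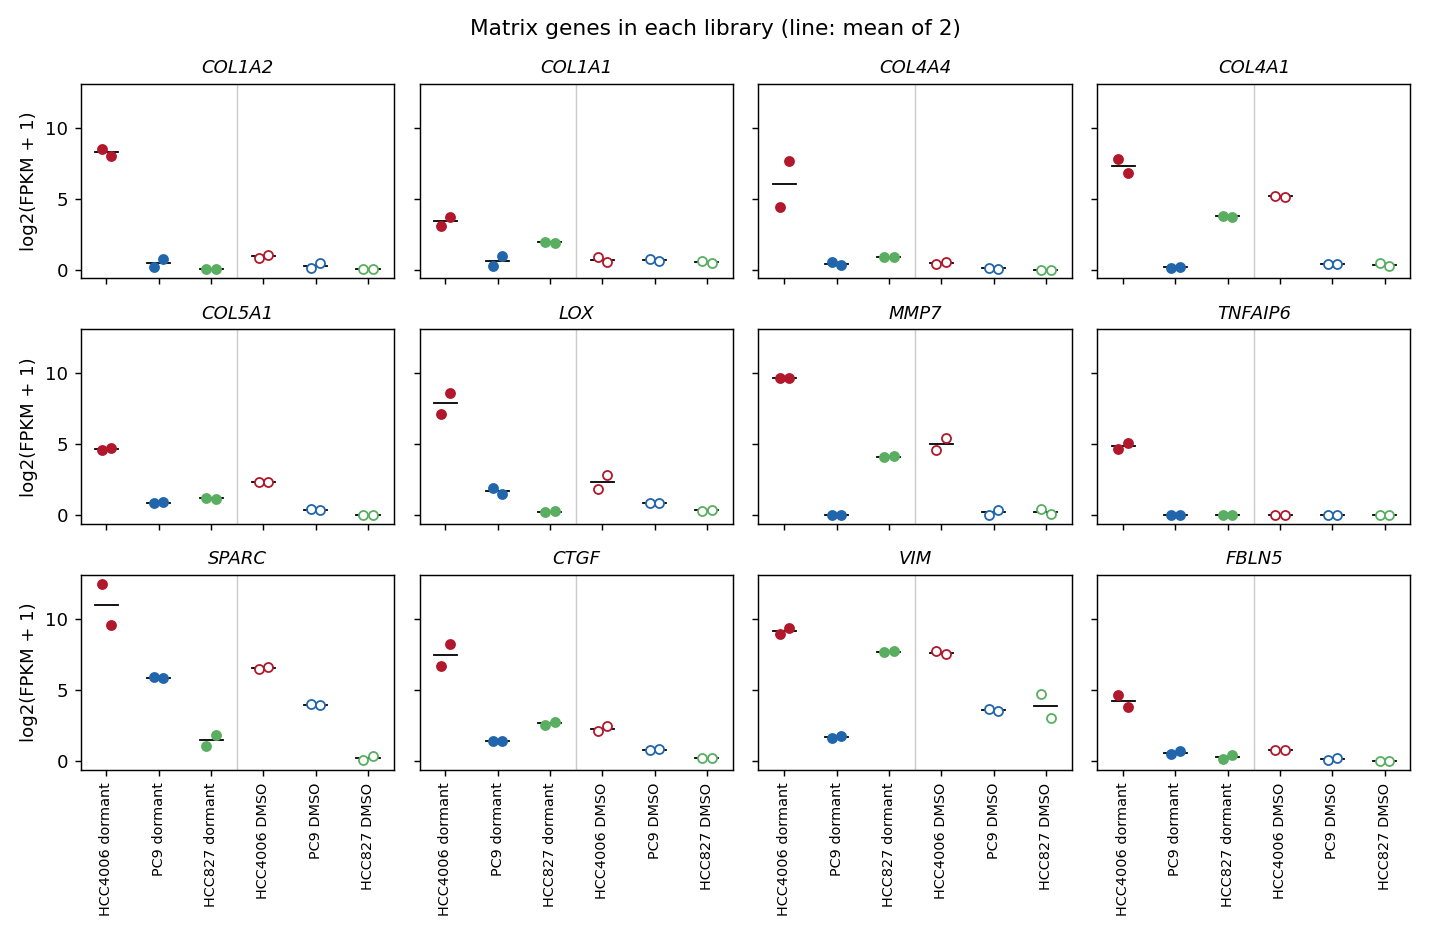
Levels of 12 matrix, matrix-bound and mesenchymal genes, as log2(FPKM + 1), in the 2 libraries of each of 6 groups, dormant left of DMSO, with the mean as a line. Dormant HCC4006 lies highest in every panel, and in COL1A2, COL4A4, TNFAIP6 and FBLN5 the DMSO HCC4006 libraries lie near 0.

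Genes that cross-link, bind or cut the matrix were also higher. LOX, the enzyme that cross-links collagen and elastin, stood at 143 and 395 FPKM in dormant HCC4006, against 2.86 and 1.81 FPKM in dormant PC9 and 0.155 and 0.225 FPKM in dormant HCC827, a difference of 6.92 ± 0.46 (adjusted p = 3.73e-05, limma). Its relative LOXL1 stood at 27.7 and 28.5 FPKM, against 2.18 to 8.7 FPKM. MMP7, a small matrix-cutting protease of epithelial cells, reached 809.5 and 818 FPKM in dormant HCC4006, against 0 and 0.03 FPKM in dormant PC9 and 16.1 and 17 FPKM in dormant HCC827. MMP2, a gelatinase of mesenchymal cells, stood at 46 and 21.9 FPKM, against 0 to 2.98 FPKM. All of these were called, so by the rule both HCC4006 libraries lay above every other dormant library. Of 16 proteases and related genes tested, 5 were called higher and 0 lower, yet their median difference was -0.49, so most members did not share the direction of these 5.

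Among 20 matrix glycoproteins tested, 11 were called higher and 1 lower, with a median difference of 2.54. Of the 20, 3 passed the filter through HCC4006, and all 3 were called higher. TNFAIP6, a secreted protein that links hyaluronan chains in inflamed tissue, was listed at 25.1 and 33.5 FPKM in dormant HCC4006 and at 0 in the other 10 libraries, DMSO HCC4006 included. SPARC, a collagen-binding protein, stood at 5692 and 753 FPKM in dormant HCC4006, against 58.4 and 55.7 FPKM in dormant PC9 and 1.11 and 2.62 FPKM in dormant HCC827. TGFBI, which joins collagen to integrins, stood at 5394 and 3072 FPKM, against 9.23 and 7.01 FPKM in dormant PC9 and 1172 and 1137 FPKM in dormant HCC827. Dormant HCC4006 thus led by a wide gap in all 3, with PC9 second for SPARC and HCC827 second for TGFBI. FBLN5, needed to assemble elastic fibres, stood at 24.3 and 13.3 FPKM, against 0.12 to 0.625 FPKM. TNC stood at 41 and 13.9 FPKM in dormant HCC4006, against 0.005 to 1.31 FPKM, and was as high in DMSO HCC4006, at 68.2 and 64.2 FPKM. For each of these genes both HCC4006 libraries lay above the other 4 dormant libraries. IGFBP7 and IGFBP5, secreted binders of insulin-like growth factors, stood at 122 and 1657 FPKM and 14.1 and 43.1 FPKM in dormant HCC4006, against 0.5 to 4.07 FPKM and 0.04 to 2.92 FPKM. IGFBP5 was listed at 0 in all 6 DMSO libraries. The member called lower, AGRN, an organiser of the nerve-muscle junction, stood at 0.3 and 0 FPKM, against 0.515 to 1.31 FPKM. AGRN was no longer called without the poor library.

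Integrins, the receptors through which cells hold the matrix, followed in part. Of 20 laminins and integrins tested, 5 integrin genes were called higher and 0 lower, close to the share of all genes. Of the 20, 2 passed the filter through HCC4006, both called. ITGB6, a subunit of the epithelial integrin that activates TGF-beta, stood at 37.1 and 192 FPKM in dormant HCC4006, against 1.34 and 0.655 FPKM in dormant PC9 and 14.3 and 8.46 FPKM in dormant HCC827.

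CTGF, the matrix-bound protein best known as a target of YAP and TEAD, stood at 104 and 303 FPKM in dormant HCC4006, against 1.69 and 1.71 FPKM in dormant PC9 and 4.97 and 5.76 FPKM in dormant HCC827. Both HCC4006 libraries were far above the rest, and the difference was 5.43 ± 0.43 (adjusted p = 7.18e-05, limma). Its sister gene CYR61 showed another order, with 138 and 173 FPKM in dormant HCC4006, 19 and 21.3 FPKM in dormant PC9 and 385 and 355 FPKM in dormant HCC827, so HCC4006 lay between the other lines. ANKRD1, a target in the nucleus, stood at 17.1 and 92.1 FPKM in dormant HCC4006, against 0.85 and 0.405 FPKM in dormant PC9 and 19.5 and 16.7 FPKM in dormant HCC827. Its HCC4006 libraries overlapped those of HCC827 and it was not called. Of 23 tested YAP and TEAD targets, 7 were called higher and 0 lower, with a median difference of 0.94. With median of ratios scaling 3 were called higher, where 1634 of all 14699 tested genes were.

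The bases before the start of 4 of these genes are shown because their levels in dormant HCC4006 stood far above those in dormant PC9 and in DMSO HCC4006. Of 10 matrix and signalling genes whose windows were searched, 5 held a match to either motif below (CTGF, MMP7, TNFAIP6, SPARC and IGFBP5) and 5 held none (LOX, COL4A4, FBLN5, GREM1 and COL5A1). Of the 4 shown, 3 were picked for holding a match and LOX for holding none. They are the 250 bases upstream of the RefSeq start on GRCh38.p14, 5′ to 3′ on the strand of the gene, at chr6:131951373-131951622 for CTGF (minus strand, RefSeq symbol CCN2), chr11:102530748-102530997 for MMP7 (minus strand), chr2:151357342-151357591 for TNFAIP6 (plus strand) and chr5:122078260-122078509 for LOX (minus strand). Capitals mark GGAATG, the core that TEAD factors bind, or TGANTCA, the element that AP-1 factors bind, searched on both strands.
CTGF: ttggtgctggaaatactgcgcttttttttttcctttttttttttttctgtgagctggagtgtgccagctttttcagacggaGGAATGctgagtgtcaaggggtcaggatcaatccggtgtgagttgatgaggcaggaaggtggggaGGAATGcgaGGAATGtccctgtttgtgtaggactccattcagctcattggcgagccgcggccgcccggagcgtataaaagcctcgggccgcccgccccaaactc
MMP7: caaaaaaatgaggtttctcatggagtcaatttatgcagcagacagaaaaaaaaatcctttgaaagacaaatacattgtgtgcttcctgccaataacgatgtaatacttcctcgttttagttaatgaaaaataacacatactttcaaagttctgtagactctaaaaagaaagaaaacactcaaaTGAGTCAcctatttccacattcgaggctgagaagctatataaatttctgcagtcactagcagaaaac
TNFAIP6: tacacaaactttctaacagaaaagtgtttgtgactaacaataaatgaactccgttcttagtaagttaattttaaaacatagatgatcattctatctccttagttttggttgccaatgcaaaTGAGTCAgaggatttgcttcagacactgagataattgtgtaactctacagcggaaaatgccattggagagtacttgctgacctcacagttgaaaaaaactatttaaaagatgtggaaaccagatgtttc
LOX: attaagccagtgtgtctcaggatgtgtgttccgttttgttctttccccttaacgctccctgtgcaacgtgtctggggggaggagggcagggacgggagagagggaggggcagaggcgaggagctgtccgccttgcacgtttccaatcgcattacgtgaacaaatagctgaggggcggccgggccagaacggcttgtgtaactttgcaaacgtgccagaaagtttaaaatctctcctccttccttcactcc
The CTGF window held 3 matches to the TEAD core, which began 169, 104 and 95 bases before the start, and none to the AP-1 element. The MMP7 and TNFAIP6 windows each held 1 AP-1 match, which began 67 and 129 bases before the start. Of 35116 windows of this length in the RefSeq table, 11.9% held the TEAD core and 6.6% the AP-1 element. Among the genes called higher with a window, 10.3% held the TEAD core and 3.6% the AP-1 element, against 9.8% and 4.3% of all tested genes with one. A match describes letters only, and says nothing about binding in these cells.

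The Hippo components themselves showed no common direction, with 3 of 21 tested members higher and 2 lower, and 0 in either direction without the poor library. YAP1 stood at 1.49 and 23.8 FPKM in dormant HCC4006, against 0.33 to 1.47 FPKM, and WWTR1, which encodes its relative TAZ, at 6.12 and 36.8 FPKM, against 3.48 to 31.8 FPKM. Neither was called (adjusted p = 0.0646 and 0.617, limma). TEAD1 was called higher, at 4.15 and 19.9 FPKM in dormant HCC4006, against 1.05 to 2.4 FPKM, but not without the poor library.

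Many of the mesenchymal genes tested were higher in dormant HCC4006 than in both other dormant lines, while most epithelial genes were not called in either direction. Of 20 mesenchymal identity genes, 12 were tested, and 7 of these were called higher and 0 lower. Of the 12, 4 passed the filter through HCC4006, and all 4 were called. In DMSO cells 6 of the 12 were called higher in HCC4006 and 0 lower, with a median difference of 1.77, where 4.63% of all tested genes were called higher. Higher levels in HCC4006 were thus in part there without the drugs. VIM, the intermediate filament of mesenchymal cells, stood at 504 and 654 FPKM in dormant HCC4006, 2.04 and 2.48 FPKM in dormant PC9 and 205 and 212 FPKM in dormant HCC827. All 6 libraries kept this order, although the difference from HCC827 alone, 1.46 ± 0.57, was not called. The mean difference was 4.46 ± 0.49 (adjusted p = 0.000351, limma). The cadherins CDH2 and CDH11, adhesion proteins of mesenchymal cells, stood at 16.9 and 98 FPKM and 4.64 and 26.9 FPKM in dormant HCC4006, against 0 to 2.82 FPKM and 0 to 0.005 FPKM. ZEB1, a repressor of epithelial genes, was low throughout, at 1.04 and 1.65 FPKM in dormant HCC4006, against 0 to 0.32 FPKM. The fibroblast surface protein THY1 stood at 5.26 and 2.37 FPKM, against 0 to 0.025 FPKM. The fibroblast sums given above moved in the same direction, and their part in these differences was not tested.

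The list was not uniform. FN1, the matrix protein fibronectin, stood at 26.5 and 40 FPKM in dormant HCC4006, against 57.8 and 69 FPKM in dormant PC9 and 32.8 and 37.4 FPKM in dormant HCC827. SNAI2, a driver of mesenchymal change, stood at 11.1 and 15.2 FPKM, against 1.06 to 30.7 FPKM, between the other lines. AXL, a receptor kinase of drug-tolerant cells, differed widely between the replicates, at 285 and 6.28 FPKM in dormant HCC4006, against 1.06 to 21.8 FPKM, and was not called (adjusted p = 0.08, limma).

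CDH1, the epithelial cadherin, stood at 51.8 and 25.9 FPKM in dormant HCC4006, against 23.3 and 21.7 FPKM in dormant PC9 and 169.9 and 179 FPKM in dormant HCC827, and was not called (adjusted p = 0.245, limma). Of 21 epithelial genes tested, 2 were higher and 2 lower, and 1 was higher without the poor library.

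Keratins, the filament proteins of epithelial cells, lay mostly lower. Of 15 tested, 6 were called lower and 1 higher, with a median difference of -2.84, and 5 were lower without the poor library. With median of ratios scaling 8 were lower and 0 higher, but this scaling also called 1537 of all 14699 tested genes lower. KRT15, a keratin of basal cells, stood at 0.5 and 0.02 FPKM in dormant HCC4006, against 11.3 to 18.9 FPKM. The difference was -3.65 ± 0.37 (adjusted p = 0.000236, limma). KRT17, a keratin of stressed epithelia, stood at 19.6 and 0.335 FPKM, against 903 and 1515 FPKM in dormant PC9 and 114 and 94.2 FPKM in dormant HCC827. KRT19, a keratin of simple epithelia, stood at 363 and 9.9 FPKM in dormant HCC4006, against 2945 to 5696 FPKM. Both HCC4006 libraries lay below all others, the second far below the first. In DMSO cells KRT19 did not set HCC4006 apart, at 2446 and 2533 FPKM, against 237 to 3155 FPKM. KRT13 was a gene of PC9, at 785 and 1250.2 FPKM in that line and under 1 FPKM in dormant HCC4006 and dormant HCC827.

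Some receptors and ligands of developmental pathways were higher in dormant HCC4006. Of 29 genes of TGF-beta and BMP signalling, 22 were tested, and 10 of these were higher and 0 lower. With median of ratios scaling 5 were called higher, and 4 when each line was tested separately. Over all 14699 tested genes these fits called 1634 and 1268 higher. Of the 22, 4 passed the filter through HCC4006, 3 of them called. TGFBR1, the type I receptor of TGF-beta, stood at 7.79 and 26.1 FPKM in dormant HCC4006, against 1.47 to 2.83 FPKM. Its difference was 2.33 ± 0.48 (adjusted p = 0.00813, limma). GREM1, a secreted trap for BMP ligands, stood at 15.8 and 85.5 FPKM, against 0.09 to 0.155 FPKM. SMAD9, which carries BMP signals to the nucleus, stood at 2.82 and 3.89 FPKM, against 0.015 to 0.615 FPKM. All of these were called, so by the rule their groups did not overlap.

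Of 32 Wnt genes, 12 were tested, and 6 of these were higher and 0 lower. With median of ratios scaling 4 were called higher, and 3 with each line tested separately, where 1634 and 1268 of all 14699 tested genes were. Of the 12, 4 passed the filter through HCC4006, 3 of them called. The ligand WNT5A stood at 3.27 and 14.5 FPKM in dormant HCC4006, against 0.02 to 0.765 FPKM. LGR5, a receptor for R-spondins that marks stem cells of the gut, stood at 20.7 and 38.1 FPKM, against 0.04 to 0.49 FPKM. DKK3, a secreted relative of Wnt inhibitors, stood at 38.2 and 64.5 FPKM in dormant HCC4006, against 1.44 to 1.96 FPKM, and was as high in DMSO HCC4006, at 26.8 and 45.3 FPKM.

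EGFR, the target of osimertinib, stood at 7.07 and 23.6 FPKM in dormant HCC4006, 6.12 and 3.58 FPKM in dormant PC9 and 97.7 and 67.4 FPKM in dormant HCC827. HCC4006 lay close to PC9 and far below HCC827, and EGFR was not called. ERBB2, ERBB3 and MET were not called either (adjusted p = 0.389, 0.0625 and 0.734, limma). DUSP6, a phosphatase that reads out MEK activity, was listed at 0.255 and 4.25 FPKM in dormant HCC4006 and at 0 in the other 4 dormant libraries. It was not called, and the 4.25 FPKM came from the poor library. In DMSO cells it was higher in HCC4006, at 78.4 and 98.7 FPKM, against 2.99 to 13.1 FPKM. Of 19 other receptor kinases tested, 5 were higher and 0 lower, near the share of all genes, and 8 were higher without the poor library. Of the 19, 4 passed the filter through HCC4006, 3 of them called. FGFR1 and FGFR2, receptors of fibroblast growth factors, stood at 4.8 and 1.72 FPKM and 2.42 and 2.46 FPKM in dormant HCC4006, against 0.22 to 0.625 FPKM and 0.01 to 0.59 FPKM.

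Several HOX genes, which record body position, were higher in dormant HCC4006. Of 37 HOX genes, 10 were tested, and 8 of these were higher and 0 lower. Of the 10, 6 passed the filter through HCC4006 and all 6 were called, so the share is in part set by the filter. HOXD10 and HOXD11 stood at 2.75 and 2 FPKM and 4.94 and 4.68 FPKM in dormant HCC4006 and were listed at 0 in all libraries of both other lines, treated or not. DMSO HCC4006 held 1.91 and 3.17 FPKM and 4.93 and 6.79 FPKM. Both genes were thus read in HCC4006 cells with and without the drugs. HOXC10 stood at 7.14 and 10.3 FPKM in dormant HCC4006, against 0.01 to 2.8 FPKM. NKX2-1, the lineage factor of alveolar cells, stood at 5.81 and 7.8 FPKM, against 1.34 and 1.92 FPKM in dormant HCC827 and 0 in dormant PC9. HOPX, a marker of flat alveolar cells, stood at 20.1 and 47.8 FPKM in dormant HCC4006, against 1.54 and 0.455 FPKM in dormant PC9 and 9.21 and 10 FPKM in dormant HCC827. Of 16 alveolar and airway lineage genes tested, 7 were higher and 0 lower. Of the 16, 7 passed the filter through HCC4006, 3 of them called higher.

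**Figure D3:**
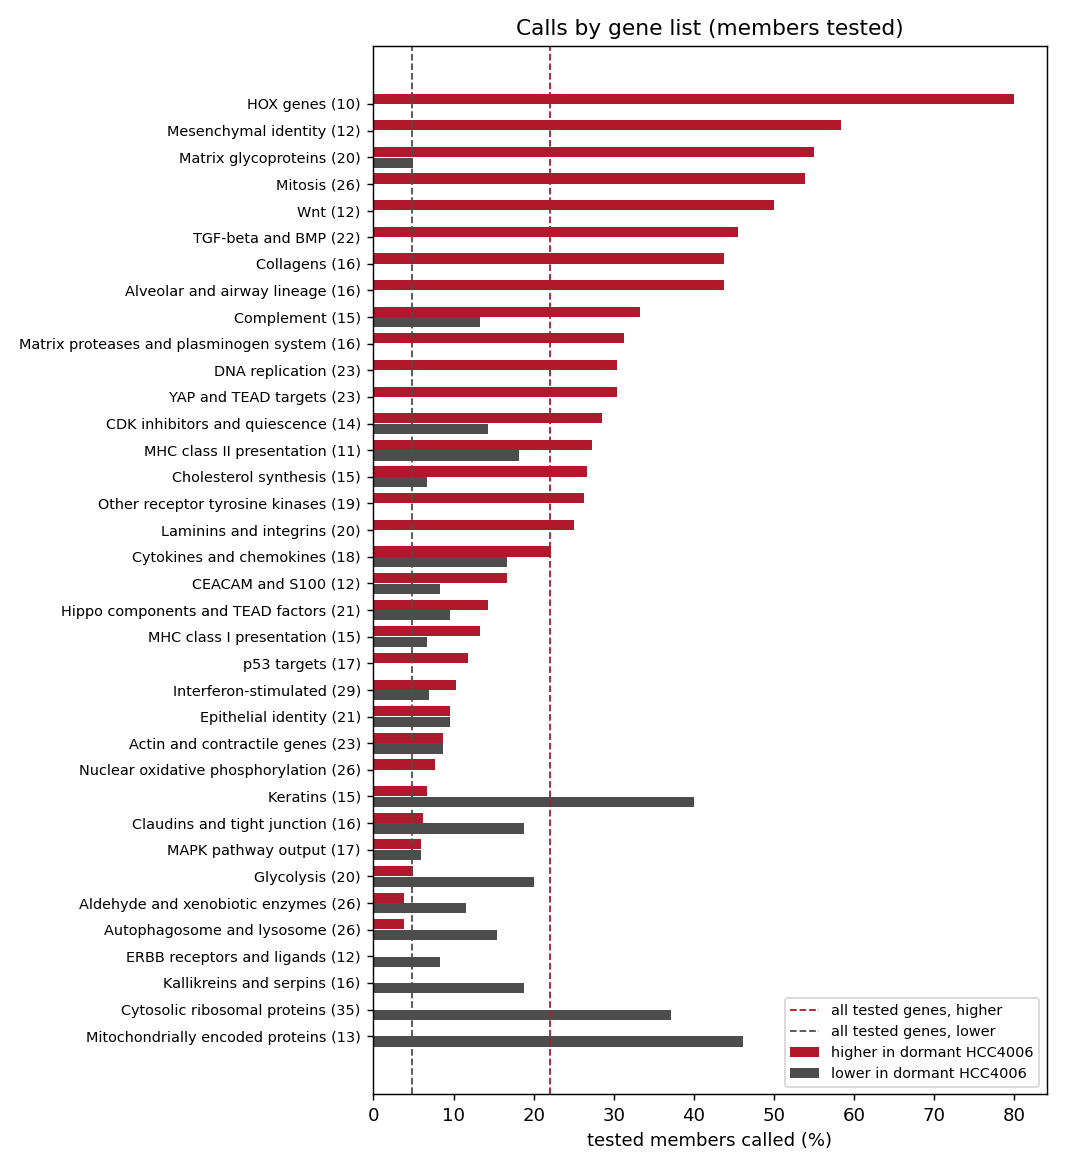
Share of tested members called higher (red) or lower (grey) in dormant HCC4006, in percent, for each gene list with at least 10 tested members, the number tested in brackets. The dashed lines mark the 22.1% and 4.79% of all tested genes. HOX, mesenchymal and matrix lists lie right of the red line, and keratins, ribosomal proteins and mitochondrially encoded proteins right of the grey line.

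A stretch of chromosome 11 around CD44 was higher as a block. From EIF3M to TRAF6, in the gene order of the annotation, 24 neighbouring tested protein-coding genes were all called higher in dormant HCC4006. Their differences ran from 1.78 to 6.02 with a median of 3.48. In DMSO cells, 18 of the 24 were called higher, with a median of 2.67, where 4.63% of all tested genes were called. Of the 5 tested genes on each side, 6 of 10 were higher in dormant cells and 0 in DMSO cells. On the rest of the chromosome 132 of 618 were higher. All 12 windows of 15 neighbours in which every gene was higher lay on this chromosome, out of 10895 windows, whose median was 3 genes. The stretch was chosen after its values were seen and is given as a description.

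The members of this stretch have unrelated roles. CD44, the surface receptor for hyaluronan, stood at 2514 and 2214 FPKM in dormant HCC4006, 299.5 and 248 FPKM in dormant PC9 and 81.4 and 69.6 FPKM in dormant HCC827. CAT, catalase, which breaks down hydrogen peroxide, stood at 418 and 429 FPKM in dormant HCC4006, against 7.09 to 13.2 FPKM. Neither other line came near these levels, and the difference of CAT was 5.27 ± 0.49 (adjusted p = 0.000139, limma). CD59, which shields cells from complement, stood at 3449 and 1041 FPKM, against 179 to 253 FPKM. EIF3M, a subunit of a translation initiation factor, stood at 4221 and 1600.3 FPKM, against 136 to 179 FPKM. EHF, an epithelial transcription factor, stood at 27.8 and 13.1 FPKM, against 0.785 to 3.62 FPKM. All of these 5 were called, so by the rule their groups did not overlap. DMSO HCC4006 had similar levels of CAT, at 252 and 357 FPKM, and still more CD59, at 6816 and 6211 FPKM. The 6 members not called in DMSO cells were PRRG4, QSER1, HIPK3, PAMR1, LDLRAD3 and PRR5L. HIPK3 stood at 14.8 and 644 FPKM in dormant HCC4006 and 2.41 and 7.31 FPKM in DMSO HCC4006, and PRR5L at 25 and 48.3 FPKM and 2.53 and 3.1 FPKM. DEPDC7, the 1 member whose difference between dormant and DMSO cells was itself called, stood at 64.1 and 155 FPKM in dormant HCC4006 but 6.6 and 9.9 FPKM in DMSO HCC4006, against 0 to 1.78 FPKM and 0.29 to 2.53 FPKM in the other lines.

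**Figure D4:**
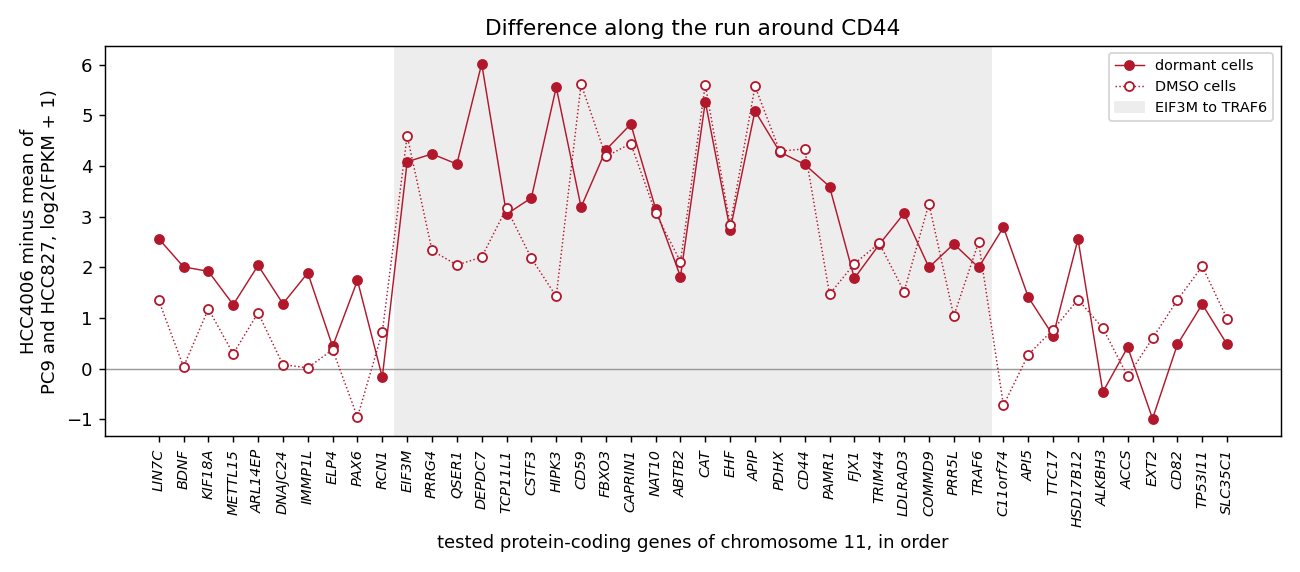
Difference of HCC4006 from the mean of PC9 and HCC827, in log2(FPKM + 1), for consecutive tested protein-coding genes of chromosome 11, in dormant cells (filled) and DMSO cells (open). The step up at EIF3M is seen in both, and most genes on either side of the stretch lie lower than those within it.

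The cell cycle inhibitors CDKN2A and CDKN2B were listed at 0 in all 4 HCC4006 libraries. Of 14 genes of CDK inhibition and quiescence tested, 4 were higher and 2 lower in dormant HCC4006. Of the 14, 1 passed the filter through HCC4006, and it was called higher. CDKN2A, whose products restrain CDK4 and stabilise p53, stood at 34.9 and 53.9 FPKM in dormant PC9 and 147 and 122 FPKM in dormant HCC827. CDKN2B, a sister inhibitor, stood at 13.8 and 17 FPKM in dormant PC9 and 25 and 15.2 FPKM in dormant HCC827. The difference of CDKN2A was -6.28 ± 0.71 and that of CDKN2B -4.19 ± 0.32 (adjusted p = 0.00042 and 5.91e-05, limma), on a scale where a gene listed at 0 has the value 0. Their neighbour MTAP, an enzyme of methionine salvage, was present, at 30.3 and 12.3 FPKM in dormant HCC4006, against 5.21 and 5.34 FPKM in dormant PC9 and 28.4 and 27.9 FPKM in dormant HCC827, and was not called.

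A part of the proliferation genes was higher in dormant HCC4006 than in the other dormant lines. Of 26 mitosis genes tested, 14 were called higher and 0 lower, with a median difference of 1.57. Without the poor library 18 were called, 10 with median of ratios scaling, 8 with each line tested separately and 0 in the fit of 2 against 4. MKI67, the classic marker of cycling cells, stood at 5.33 and 5.54 FPKM in dormant HCC4006, against 1.47 and 0.99 FPKM in dormant PC9 and 0.03 and 0.015 FPKM in dormant HCC827. CDK1, the kinase that starts mitosis, stood at 62.4 and 99 FPKM in dormant HCC4006, against 30.4 and 19.4 FPKM in dormant PC9 and 1.47 and 0.81 FPKM in dormant HCC827. MAD2L1, of the spindle checkpoint, stood at 37.8 and 125 FPKM, against 4.59 to 8.54 FPKM. In each case both HCC4006 libraries lay above the other 4, with PC9 next and HCC827 lowest for MKI67 and CDK1. The difference of MKI67 was 2.10 ± 0.34 (adjusted p = 0.00294, limma) and that of CDK1 3.44 ± 0.46 (adjusted p = 0.00103, limma). In DMSO HCC4006, CDK1 stood at 181 and 313 FPKM and MKI67 at 8.56 and 15.6 FPKM, above both dormant libraries of the line. In DMSO cells 1 of the 26 was called higher in HCC4006.

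Of 23 DNA replication genes tested, 7 were higher and 0 lower, against 3 higher with each line tested separately and 0 in the fit of 2 against 4. PCNA, the sliding clamp of replication, stood at 66.2 and 143 FPKM in dormant HCC4006, against 38.2 and 27.1 FPKM in dormant PC9 and 14.6 and 15.9 FPKM in dormant HCC827. RRM1, a subunit of the enzyme that makes DNA building blocks, stood at 36.1 and 49.8 FPKM, against 4.85 to 9.41 FPKM. MYC, a driver of growth, was lower, at 2.88 and 3.07 FPKM in dormant HCC4006, against 9.54 and 11.7 FPKM in dormant PC9 and 55.6 and 44.2 FPKM in dormant HCC827. CDKN1A, the p53-induced inhibitor p21, stood at 11.9 and 7.21 FPKM, against 2.24 to 3.85 FPKM, and passed the test against PC9 but not against HCC827 (adjusted p = 0.0409 and 0.0722, limma).

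Genes of the apoptotic pathway went both ways. Of 9 pro-apoptotic genes of the BCL2 family tested, 2 were higher and 1 lower. Of 8 anti-apoptotic genes tested, 3 were higher and 1 lower. BMF, a BH3-only killer protein, stood at 4.92 and 4.66 FPKM in dormant HCC4006, against 0.175 and 0.175 FPKM in dormant PC9 and 3.29 and 2.46 FPKM in dormant HCC827. PMAIP1, which encodes the killer protein NOXA, stood at 21.6 and 109.7 FPKM, against 3.76 and 2.28 FPKM in dormant PC9 and 13 and 14.2 FPKM in dormant HCC827. MCL1, the protector that NOXA binds, stood at 24 and 43.5 FPKM in dormant HCC4006, against 2.29 to 8.76 FPKM. MCL1 was called, with a difference of 2.46 ± 0.41 (adjusted p = 0.00344, limma). BCL2L11, which encodes BIM, stood at 2.65 and 3.3 FPKM, against 2.79 to 5.08 FPKM, and was not called (adjusted p = 0.503, limma). BCL2L1, which encodes the protector BCL-XL, was called lower, at 7.46 and 1.18 FPKM, against 9.27 to 17.6 FPKM, but not without the poor library. BIRC3, an inhibitor of cell death, stood at 17.6 and 21.6 FPKM in dormant HCC4006, against 3.32 and 1.88 FPKM in dormant PC9 and 10.3 and 9.03 FPKM in dormant HCC827. BMF, PMAIP1 and BIRC3 passed the test against PC9 but not against HCC827, and BCL2L1 passed neither.

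Immune and secreted genes also differed. CD74, the chaperone of MHC class II, stood at 523 and 156 FPKM in dormant HCC4006, against 20.6 and 21.4 FPKM in dormant PC9 and 0.215 and 0.16 FPKM in dormant HCC827. HLA-DPA1 and HLA-DPB1, chains of a class II molecule, were higher, at 15.6 and 1.79 FPKM and 10.5 and 3.02 FPKM in dormant HCC4006, against 0 to 0.215 FPKM and 0 to 0.02 FPKM. In contrast, HLA-DRB1 and HLA-DQA1 were lower, at 0.95 and 0.525 FPKM and 0.175 and 0.275 FPKM in dormant HCC4006, against 1.85 to 6.48 FPKM and 0.59 to 7.48 FPKM. These genes have close copies whose reads may be shared. Of 11 MHC class II genes tested, 3 were higher and 2 lower. Of the 11, 4 passed the filter through HCC4006, 2 of them called higher. The difference of CD74 was 5.81 ± 0.48 (adjusted p = 8.1e-05, limma). CCL2, which attracts monocytes, stood at 574 and 649 FPKM in dormant HCC4006, against 0 and 0.09 FPKM in dormant PC9 and 119 and 105 FPKM in dormant HCC827. HCC4006 lay highest, with HCC827 between and PC9 near 0. TNFSF10, the death ligand TRAIL, stood at 177 and 75.7 FPKM, against 1.75 to 9.48 FPKM. IL11, a cytokine of fibrotic tissue, stood at 6.28 and 19.5 FPKM, against 0.08 to 0.44 FPKM. These examples do not stand for their list. Of 18 cytokine and chemokine genes tested, 4 were higher and 3 lower, with a median difference of -0.46. The share higher was near the 22.1% of all tested genes, and the share lower was above their 4.79%. Of the 18, 1 passed the filter through HCC4006, and it was called higher. IFITM2, a membrane protein that blocks virus entry, stood at 298 and 246 FPKM in dormant HCC4006, against 2.26 to 15 FPKM. Of 29 interferon-stimulated genes tested, 3 were higher and 2 lower, and without the poor library 7 were higher and 1 lower.

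Ribosomal protein, mitochondrially encoded and glycolysis genes ran lower, and some of their counts were smaller without the poor library. Nuclear respiratory chain genes did not run lower: of 26 tested, 2 were higher and 0 lower, with a median difference of 0.23. Of 35 ribosomal protein genes tested, 13 were lower and 0 higher, with a median difference of -1.67. Without the poor library 7 were lower. RPL7A stood at 734 and 265 FPKM in dormant HCC4006, against 1988 to 2289 FPKM. Of 13 mitochondrially encoded proteins, 6 were lower and 0 higher, and 6 without the poor library. MT-ND1, a subunit of complex I, stood at 799 and 1453 FPKM in dormant HCC4006, against 2819 to 7256 FPKM. Of 20 glycolysis genes, 4 were lower and 1 higher, and 1 lower without the poor library. SLC2A1, the glucose transporter, stood at 8.82 and 5.88 FPKM in dormant HCC4006, against 63.5 and 80.3 FPKM in dormant PC9 and 20.4 and 17.1 FPKM in dormant HCC827. GAPDH and the lactate enzyme LDHA were called lower, at 3755 and 6.72 FPKM and 832 and 73.1 FPKM in dormant HCC4006, against 4308 to 18754 FPKM and 961 to 1592 FPKM, but not without the poor library.

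Further genes with wide gaps belong to no shared pathway. NTM, a neural adhesion protein, stood at 84.4 and 2194 FPKM in dormant HCC4006, against 0.025 to 0.65 FPKM. CYP24A1, which breaks down active vitamin D, stood at 128 and 82.8 FPKM, against 0 to 1.28 FPKM, and was as high in DMSO HCC4006, at 52.2 and 115 FPKM. Of these, NTM differed widely between its replicates and CYP24A1 did not. DIO2, which activates thyroid hormone, stood at 86.5 and 425 FPKM, against 0.765 to 2.66 FPKM. SLC27A2, an importer and activator of fatty acids, stood at 81.1 and 79.7 FPKM, against 0.105 to 3.21 FPKM, with the replicates close together. HCLS1, a signalling protein of blood cells, stood at 76.2 and 18.5 FPKM in dormant HCC4006 and 29.6 and 33.2 FPKM in DMSO HCC4006, against 0 to 0.135 FPKM and 0 to 0.065 FPKM in the other lines. SPOCK3, LUZP2 and the metal-binding MT1E were also among the 15 widest gaps. SPOCK3 stood at 29.5 and 81.1 FPKM in dormant HCC4006, against 0 to 0.345 FPKM, and LUZP2 at 21.7 and 21.4 FPKM, against 0.005 to 0.215 FPKM. MT1E stood at 86.1 and 35.8 FPKM in dormant HCC4006 and at 211 and 145 FPKM in DMSO HCC4006. Each of the 15 was called in every alternative fit that tested it. COL1A2, TNFAIP6 and LUZP2 were not tested in the fit that asked for 1 FPKM in 4 libraries.

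Among the 15 widest gaps below, UCA1, a long noncoding RNA first described in bladder cancer, stood at 0.94 and 0.025 FPKM in dormant HCC4006, against 148 and 174 FPKM in dormant PC9 and 82.5 and 105 FPKM in dormant HCC827. The difference was -6.45 ± 0.46 (adjusted p = 4.77e-05, limma). ALPP, placental alkaline phosphatase, which has close copies, stood at 0.05 and 0 FPKM, against 199 and 349 FPKM in dormant PC9 and 26.6 and 25.7 FPKM in dormant HCC827. Both were near 0 in HCC4006 and abundant in the other lines. SAA1, an acute-phase protein, stood at 0.585 and 0 FPKM, against 14.7 to 17.6 FPKM. SLC7A5, an importer of large amino acids, stood at 2.77 and 1.09 FPKM, against 73 and 105 FPKM in dormant PC9 and 22.4 and 22.2 FPKM in dormant HCC827. Both genes were called, so by the rule their groups did not overlap. TNNC1, a calcium sensor of slow muscle, stood at 0.975 and 0 FPKM, against 11.1 to 45.3 FPKM. MUC16, a large membrane mucin, stood at 0 and 0.545 FPKM, against 7.09 to 16.2 FPKM. The histone genes HIST2H2AA3, HIST1H2BC and HIST1H1C were lower too, at 10.9 and 7.92 FPKM, 0.59 and 0 FPKM and 7.4 and 0.325 FPKM in dormant HCC4006, against 94.3 to 176 FPKM, 11.6 to 43.5 FPKM and 44.3 to 713 FPKM. However, histone genes have near-identical copies and lack the usual poly(A) tail, so these values are uncertain. AKR1C1, a steroid and aldehyde reductase, was a gene of PC9, at 2072 and 1685 FPKM there and under 1 FPKM in dormant HCC4006 and dormant HCC827.

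Part of these differences was already there without the drugs. In DMSO cells, 680 genes were called higher in HCC4006 (4.63%) and 141 lower (0.959%) by the same rule. Of the genes higher in dormant HCC4006, 436 were also higher in DMSO HCC4006, which is 13.4% of the dormant and 64.1% of the DMSO calls. Of those lower, 68 were shared, 9.7% and 48.2%. These percentages depend on the fit, because the spread of the poor library enters the DMSO test too. With the 6 DMSO libraries alone, 1590 genes were called higher in DMSO HCC4006 and 324 lower. The 2 comparisons share no library, although they share an estimate of the spread. The difference between them was tested as a difference of differences: it was higher in 68 genes (0.463%) and lower in 56 (0.381%) at an adjusted p under 0.05 (limma). Of the 68, 60 were among the genes higher in dormant HCC4006. Of the 56, 19 were among the genes lower in dormant HCC4006, 3 were among those higher and 34 were not called. The difference of differences contains the dormant difference, so these overlaps are in part built in.

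Among the named genes whose difference of differences was called, COL1A2 had the largest, 7.23 ± 0.44 (adjusted p = 0.000129, limma), followed by LOX at 5.17 ± 0.65 (adjusted p = 0.00891) and COL4A4 at 4.96 ± 0.95 (adjusted p = 0.0492). TNFAIP6 stood at 4.91 ± 0.28 (adjusted p = 0.000129) and CTGF at 3.67 ± 0.61 (adjusted p = 0.0279), both from limma. CNN1, an actin-binding protein of smooth muscle, stood at 6.46 and 11.3 FPKM in dormant HCC4006, against 0.17 and 0 FPKM in DMSO HCC4006, while the other dormant libraries held 0 to 0.86 FPKM. On the lower side ALPP stood at -5.12 ± 0.51 (adjusted p = 0.00217, limma), with all 4 HCC4006 libraries under 1 FPKM. KLK10, a secreted protease, was lower in dormant HCC4006, at 8.1 and 2.36 FPKM, against 12.1 to 36.9 FPKM, and higher in DMSO HCC4006, at 20.8 and 39 FPKM, against 0.44 to 11.2 FPKM. NTM at 6.72 ± 1.35 and IGFBP7 at 5.45 ± 1.17 also lay above LOX, but were not called (adjusted p = 0.0593 and 0.0752, limma). COL1A2 and TNFAIP6 kept the call in the 23 alternatives that tested them, and ALPP and LOX lost it in 1 and 2 of 24. The fit that asked for 1 FPKM in 4 libraries did not test COL1A2 and TNFAIP6. The other 19 genes lost it in 5 to 20 of 23 or 24 alternatives.

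**Figure D5:**
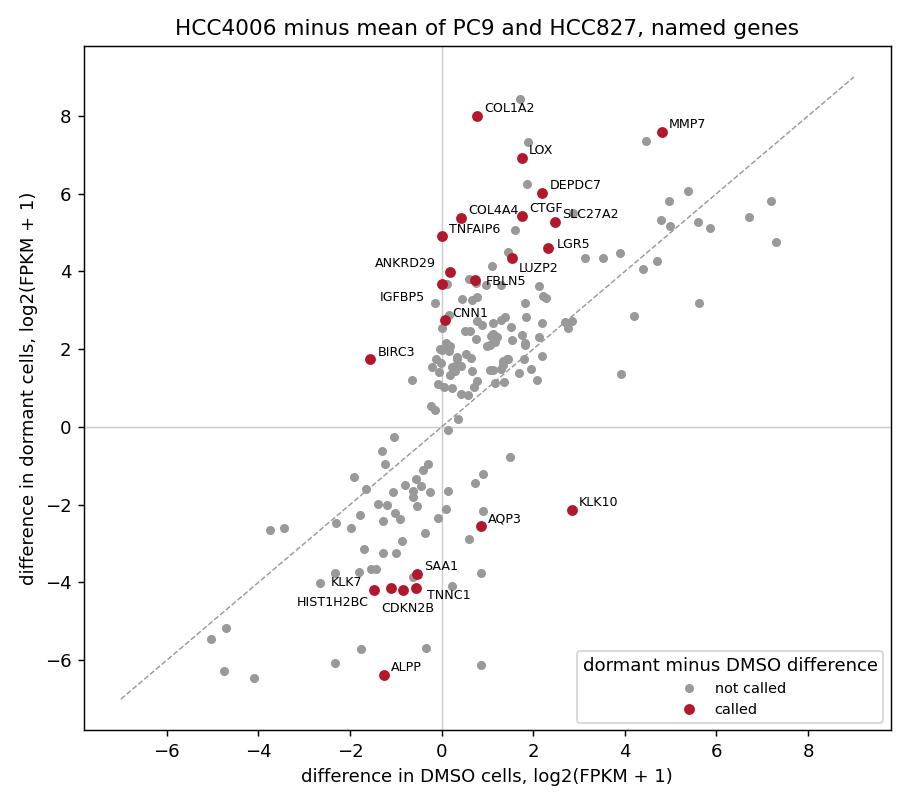
Difference of HCC4006 from the mean of PC9 and HCC827 in dormant cells (vertical) against DMSO cells (horizontal), in log2(FPKM + 1), for the named genes. Points on the dashed line have the same difference in both, and the 23 labelled red genes, with COL1A2, LOX and TNFAIP6 far above the line and ALPP and KLK10 below it, are those whose difference of differences was called.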

How the data were processed

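Bulk RNA of 12 libraries was measured. The deposited values are FPKM per gene for 57905 genes, 2 columns per library whose names differ as the files of a read pair do; both were averaged and counted as 1 library. The submitters' processing notes name STAR 2.5.1b, Cufflinks 2.2.1, DESeq2 1.10.1, hg19 and GRCh37 without role or order, and what each column holds is not given in the sources used here. The reference annotation is on a later build, so it gave only gene type, order, length and GC content (GENCODE 29), and the promoter letters with their own build (RefSeq).

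The 14699 genes that reached 1 FPKM in 2 or more libraries were tested as log2(FPKM + 1), with limma 3.58.1 in R 4.3.3: lmFit with 6 groups, then eBayes with a mean-variance trend (6 residual, 3.84 prior degrees of freedom). Tests were two-sided and adjusted by Benjamini-Hochberg over all tested genes. The spread of all 6 groups enters each test, the poor library included. Python 3.11.15, pandas 2.3.3, numpy 2.4.6 and matplotlib 3.10.9 made tables and figures.

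The comparison, the 45 gene lists and the rule for naming genes were chosen with earlier results of these data known. The rule took the 15 widest gaps each way between the nearest libraries of dormant HCC4006 and the other dormant lines among called genes with regular symbols, up to 4 called members per list, the 8 largest and 8 smallest called differences of differences, and single genes of the study's subject. AGRN, CD44, CDK1, COL4A2, COL4A3, EIF3M, FN1, HIPK3, HLA-DQA1, LDLRAD3, MTAP, PAMR1, PRR5L, PRRG4, QSER1, SNAI2 and TGFBI were named after their values were seen. A few list genes were not found under their symbols and are not analysed here. The gene left out of the widest gaps below is not reported here. On simulated data 200 of 14699 genes were changed. In the dormant comparison 20% of changes of 2 log2 units and 77% of those of 4 were called, and 0% and 37% in the difference of differences. A gene that was not called is therefore not shown to be equal. Only genes of high level were changed, fewer than the dormant comparison called, and every group had the same spread. The shares may therefore not hold for genes of lower level or for the poor library. Alternatives were other pseudocounts, filters, scalings, weights and fits, and each library left out.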

Additional observations from a re-analysis of the deposited data

Results flagged for a closer look

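The difference between HCC4006 and the other lines changed between DMSO and dormant cells in 23 of the named genes, by a test of the difference of differences (limma, adjusted p under 0.05). All values below are that difference of differences in log2(FPKM + 1), dormant minus DMSO, and positive values mean that HCC4006 stood further above the other lines in dormant cells.

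Among matrix and matrix-bound genes the values were 7.23 for COL1A2, 5.17 for LOX, 4.96 for COL4A4, 4.91 for TNFAIP6, 3.67 for CTGF, 3.67 for IGFBP5, 3.06 for FBLN5 and 2.79 for MMP7. Other genes with positive values were DEPDC7 of the chromosome 11 stretch at 3.82, ANKRD29 at 3.78, the cell death inhibitor BIRC3 at 3.29, LUZP2 at 2.82, the fatty acid importer SLC27A2 at 2.8, the actin binder CNN1 at 2.66 and the stem cell receptor LGR5 at 2.27.

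Negative values were -5.12 for ALPP, -4.98 for the protease KLK10, -3.6 for TNNC1, -3.4 for the water channel AQP3, -3.35 for CDKN2B, -3.25 for SAA1, -3.02 for HIST1H2BC and -2.71 for the protease KLK7. CDKN2B and TNFAIP6 rest on libraries listed at 0. For CDKN2B the 4 HCC4006 libraries stayed at 0, and dormant PC9 and HCC827 stood at 13.8 to 25 FPKM, against 0.44 to 1.15 FPKM with DMSO, so the value describes the other lines. ALPP, SAA1, TNNC1 and HIST1H2BC stayed under 1 FPKM in all 4 HCC4006 libraries, so their values also describe the other lines. The value of KLK7 describes PC9, at 313 and 353 FPKM in dormant cells, against 20.65 and 19 FPKM with DMSO. HCC4006 and HCC827 stayed under 1 FPKM of KLK7 in both states.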

How the results depend on the processing

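No named gene that was called changed sign in the alternatives run, and the counts of calls moved more. The sign of the dormant difference did change in 6 named genes that were not called. With median of ratios scaling it was -0.34 for MET and -0.10 for WWTR1, and with quantile normalization -0.45 for MET, -0.29 for WWTR1 and -0.08 for ERBB2. With 1 library left out it ran from -1.43 to 0.18 for EGFR, -0.35 to 1.41 for ERBB2, -0.15 to 0.55 for MET, -0.78 to 1.63 for WWTR1, -2.76 to 0.35 for ACTB and -0.78 to 0.64 for NPPB. Without both doubted libraries (the second dormant HCC4006 and the second DMSO HCC827, an alternative chosen after seeing the data) it was -0.35 for ERBB2, -0.15 for MET, -0.78 for WWTR1, 0.35 for ACTB and 0.64 for NPPB. With equal column sums without mitochondrial genes it was 0 for NPPB. Dormant HCC4006 gave 3245 higher and 704 lower genes. The counts were 2078 and 403 with no filter, 1634 and 1537 with median of ratios scaling, 1608 and 1326 with quantile normalization, and 144 and 15 with array quality weights. They were 549 and 123 in a fit of the 6 dormant libraries alone, 213 and 13 as 2 against 4, and 1268 and 170 with each line tested separately. With 1 library left out they ran from 1545 to 5202 and from 352 to 4205. Leaving out HCC4006 dormant 1 gave the highest (5202 and 4205), and leaving out PC9 dormant 2 (1545 and 365), HCC827 dormant 1 (1751 and 352), HCC827 dormant 2 (1672 and 380) or PC9 dormant 1 (2185 and 425) lowered them. In DMSO cells, 680 higher and 141 lower became 1590 and 324 in the DMSO libraries alone, 2000 and 343 with weights, 3101 and 1023 without both doubted libraries, and 299 and 24 with each line separately. Lower genes were 288 with median of ratios, 410 with quantiles and 79 with no filter, and the range with 1 library left out was 130 to 2522 higher and 30 to 507 lower. The difference of differences, 68 higher and 56 lower, was the least steady. It gave 2 and 0 with weights (limma, 1291 genes at an unadjusted p under 0.05), 9 and 13 with 1 FPKM asked in 4 libraries, 14 and 16 with a pseudocount of 0.1, 25 and 31 with no filter, 28 and 28 with no trend, 437 and 190 without both doubted libraries, 38 higher with the second column only, and 7 to 4022 and 9 to 4313 with 1 library left out. With the replicate number as a block it gave 39 and 30, and the dormant comparison 3163 and 721. The numbers do not pair the libraries: over 15 pairs of groups the correlation of deviations ran from -0.289 to 0.471, over 0.1 in 4. The cause of these shifts was not tested.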

Other observations

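Several gene groups outside the main account also differed. Proteins that seal the gaps between epithelial cells were lower where they were called: of 16 claudin and tight junction genes tested, 3 were lower and 1 higher. CLDN4 stood at 33.3 and 6.03 FPKM in dormant HCC4006, against 525 and 869 FPKM in dormant PC9 and 118 and 88.2 FPKM in dormant HCC827. Kallikreins, secreted serine proteases, and serpins, their inhibitors, had 3 of 16 tested members lower and 0 higher. KLK8 stood at 0.635 and 0 FPKM, against 47.6 and 56.1 FPKM in dormant PC9 and 4.84 and 4.12 FPKM in dormant HCC827. Of 26 enzymes of aldehydes and xenobiotics tested, 3 were lower and 1 higher. TXNRD1, which keeps thioredoxin reduced, stood at 81.6 and 30 FPKM, against 899.9 and 678 FPKM in dormant PC9 and 112 and 90.8 FPKM in dormant HCC827. Most of these gaps were widest against PC9.

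The calcium-binding protein S100A2, a p53 family target, stood at 274 and 175 FPKM in dormant HCC4006, against 2.71 to 16.7 FPKM, and at 6388 and 4777 FPKM in DMSO HCC4006, against 22.5 to 64 FPKM. Its level was thus far lower in dormant than in DMSO HCC4006 and still the highest among dormant lines. MDM2, the ligase that degrades p53, stood at 59 and 321 FPKM, against 8.45 to 12.6 FPKM, while 2 of 17 p53 targets tested were higher and 0 lower. INSIG1, a sterol sensor partner, stood at 12.5 and 37.7 FPKM, against 1.33 to 1.67 FPKM, and 4 of 15 cholesterol synthesis genes tested were higher and 1 lower. NPC2, a lysosomal cholesterol carrier, stood at 208 and 81.4 FPKM, against 616 to 768 FPKM, and 4 of 26 autophagosome and lysosome genes were lower and 1 higher. NPPB, a natriuretic peptide, stood at 54.8 and 19.9 FPKM, against 29.1 to 42.1 FPKM, and was not called (adjusted p = 0.906, limma).

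The counts of the remaining lists, as higher and lower among those tested, were 1 and 1 of 5 mucins, 2 and 1 of 12 CEACAM and S100 genes, 0 and 1 of 12 ERBB receptors and ligands, 1 and 1 of 17 MAPK output genes, and 2 and 1 of 15 MHC class I genes. They were 5 and 2 of 15 complement genes, 3 and 0 of 7 Notch genes, 1 and 1 of 9 KLF factors, 2 and 0 of 7 metallothioneins, 2 and 2 of 23 actin genes and 2 and 0 of 26 nuclear respiratory chain genes.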
